A study of Homo sapiens with 22 samples.

Results

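The exposure of A549 cells, a human lung adenocarcinoma line, to benzo(a)pyrene (BaP) was examined with a pool of tagged luciferase reporters. The series holds 22 libraries, and the comparison used the 10 RNA libraries of A549: 5 transfections that received 10 µM BaP for 18 h and 5 that received the vehicle, DMSO. The libraries were taken by their titles, and a tag was included if the A549 input library, made from the plasmid DNA, gave it at least 10 counts. These criteria kept 223690 of the 230974 tags listed in that input and of the 238017 listed in any library. The other libraries were 1 input for each line and 10 RNA libraries of H520, a lung squamous cell carcinoma line. Of the H520 libraries, 5 received 10 µM BaP for 42 h and 5 received DMSO. The reporters were ectopic, carried on constructs and not placed in the genome. The title names functional variants and lung cancer susceptibility, and the comparison asks which reporters respond to a carcinogen of tobacco smoke. The labels number the transfections from 1 to 5 in each treatment and do not tie them to separate cultures, so p-values measure the spread between these libraries, which may be technical.

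BaP is a polycyclic aromatic hydrocarbon that binds the aryl hydrocarbon receptor, a transcription factor held in the cytoplasm until a ligand enters. The receptor then moves to the nucleus, pairs with ARNT and binds xenobiotic response elements, whose core is GCGTG, near genes of BaP metabolism such as CYP1A1. In a tagged reporter assay each plasmid carries a DNA fragment that can drive the reporter and a short tag that ends up in the transcript, so the tag's share of the RNA, set against its share of the plasmid DNA, reads the activity of the fragment. The files hold reporter tags and no endogenous transcript, so neither the markers of A549 cells nor CYP1A1 could be read. The tags were not linked here to the fragments they mark, and several tags can mark the same fragment.

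The DMSO libraries held 204.6 to 349.9 M counts (M, mega), the BaP libraries 177.6 to 308.3 M and the A549 input 333.5 M. The median listed tag had 618 to 991 counts in a DMSO library and at most 894 in a BaP library. Values are TPM, here the counts of a tag per M counts of its library. They are shares, so a change of equal size in all reporters could not be seen. DMSO library 3 stood apart. Over the 122861 inactive tags with at least 1000 input counts, its log2 SD from the mean of the 10 libraries was 0.16. In the other 9 libraries this SD was 0.06 to 0.10. Of all 223690 tags with at least 10 input counts, 277 had 0 counts in DMSO library 3, against 10 to 102 in the others. No replicate library was a copy of another: the chi-square of their counts, divided by its degrees of freedom, ran from 5.75 to 93.8, and log2 TPM correlated across tags at Pearson r of 0.976 to 0.995.

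The tags below are the ones the results turn on, and each is given a letter and a number here as its name: H for higher and L for lower with BaP, M and N for active tags that were lower and higher, S for the strongest tags and V for the most variable ones. A tag has 15 bases, of which the 12 variable ones are in capitals and the constant end of 3 bases is in lower case. Tags are synthetic and have no genome position. The first set holds, for each model, the 3 higher and the 3 lower tags of smallest p in the comparison of BaP with DMSO. H1 to H3 and L1 to L3 come from the model without the transfection number, and H4, H5, L4, L5 and M1, which is active and shown in the second set, were added by the model that has it.
H1: CGGACGTTTATGggc
H2: ATTGCGCGAGCGggc
H3: TATCGCCGATAGggc
L1: AATCGACTACGGggc
L2: CTCGAATTAACTggc
L3: TGCTTTAGCGTCggc
H4: CATGGCCGTTCCggc
H5: GCCTTTAGCTAAggc
L4: CCTACCGAAATTggc
L5: TTAATGAAACGCggc

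The second set holds active tags, whose RNA share over both treatments was at least 2-fold above that of the typical tag for the same input. A fragment active with BaP alone could fall outside this set. M1, M2 and M3 had small p-values and lower values with BaP, and N1 and N2 small p-values and higher values. S1 had the highest mean TPM, S2 the highest mean activity, and V1 and V2 the largest spread between libraries.
M1: CTATCGTCAGGAggc
M2: CAGCGTTGACTAggc
M3: AAGGCTATCCTGggc
N1: CTTGCGATTAACggc
N2: GCGTTACGAAACggc
S1: CTAAGTTAGCTGggc
S2: GGAGTAATCCGCggc
V1: ATATAGATACCGggc
V2: CATATAGATAGGggc

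No tag passed the test between BaP and DMSO. Of 223066 tags tested with edgeR's quasi-likelihood test, 0 (0.00%) passed a Benjamini-Hochberg adjusted p of 0.05, and the smallest adjusted p was 0.9999. At an unadjusted p under 0.05 there were 5805 tags (2.60%), of which 2629 (1.18%) were higher and 3176 (1.42%) lower with BaP. The model with the transfection number as a block also called 0 tags (0.00%). Its smallest adjusted p was 0.963, and 8918 tags (4.0%) had an unadjusted p under 0.05, 4322 (1.94%) of them higher and 4596 (2.06%) lower. DESeq2 and limma-voom called 0 tags in both designs, while an unadjusted p under 0.05 was found for 6614 and 5892 tags without the block and for 6083 and 8884 with it. A share of 5% is what p-values spread evenly from 0 to 1 would give, and both edgeR shares lay under it. Without DMSO library 3, the library that stood apart, edgeR called 0 tags, and 4670 had an unadjusted p under 0.05.

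**Figure D1:**
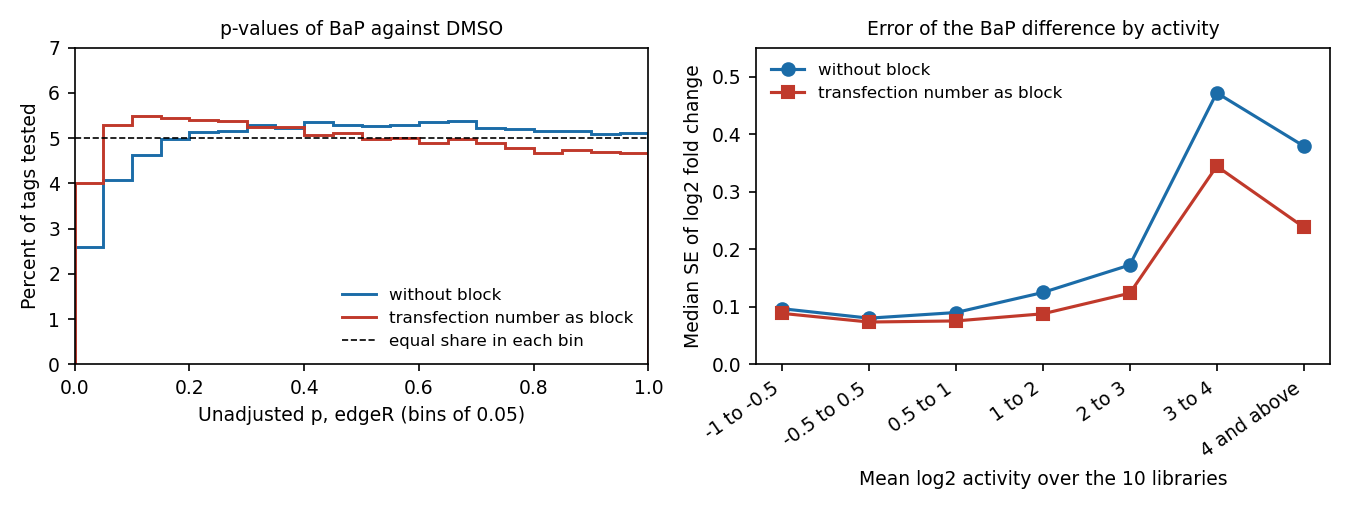
Left, percent of the 223066 tested tags in each bin of unadjusted edgeR p (bins of 0.05) without and with the transfection number as a block, with a dashed line at 5%. Right, median standard error of the log2 fold change (BaP over DMSO) for tags in bands of mean log2 activity. The first bin holds 2.60% and 4.0% of tags, and the error is highest at activities of 3 to 4, at 0.47 without the block and 0.34 with it.

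The typical tag was measured closely enough to limit the size of any difference. The median log2 fold change, BaP over DMSO, was -0.0013 over all tested tags, and 95% of the fold changes lay between -0.22 and 0.24. The median standard error was 0.081 without the block and 0.074 with it. For 92.6% of the tested tags the 95% interval of the fold change stayed within 1.5-fold in either direction, and for 97.8% it stayed within 2-fold. With the block these shares were 92.8% and 97.9%. Tags with 10 to 99 input counts had a median standard error of 0.32, and the 76 tags with the most input counts one of 0.12. The band below those, of 129710 tags with at least 1000 input counts, had one of 0.066.

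Few tags separated the 2 groups by rank. In log2 activity, the log2 RNA TPM over input TPM centred on the median of each library (a value of 0 is the typical tag), all 5 BaP libraries lay above all 5 DMSO libraries for 545 tags (0.244%), and all 5 lay below for 516 (0.231%). By transfection number, BaP was above DMSO in 5 of 5 pairs for 6767 tags (3.03%) and below in 5 of 5 for 6753 (3.03%). In both cases the 2 directions held close to equal numbers of tags.

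The 6 tags with the smallest p without the block were not active. H1 read 0.569, 0.635, 0.603, 0.705 and 0.612 TPM in DMSO libraries 1 to 5 and 1.01, 1.14, 0.772, 0.923 and 0.822 TPM in BaP libraries 1 to 5. The groups did not overlap, and BaP was higher in 5 of 5 pairs. The fold was 1.5, a log2 fold change of 0.59 ± 0.13 (SE), with an unadjusted edgeR p of 1.86e-04 and an adjusted p of 0.9999. Its mean log2 activity was -0.71 ± 0.08 (SD, n = 5) in DMSO, so its RNA lay under that of the typical tag. It rested on at least 130 counts in each library.

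L1 had the smallest p among tags that were lower with BaP. It read 1.62, 1.81, 1.72, 1.4 and 1.58 TPM in DMSO libraries 1 to 5 and 1.42, 1.16, 1.06, 1.23 and 1.16 TPM with BaP. In TPM, BaP library 1 lay just above DMSO library 4, the lowest of the DMSO values, and in log2 activity the groups did not overlap. The log2 fold change was -0.42 ± 0.10 (SE), with an unadjusted edgeR p of 3.56e-04 and an adjusted p of 0.9999.

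H2 and H3 were the next higher tags, with log2 fold changes of 0.54 and 0.42 and unadjusted p-values of 4.17e-04 and 5.28e-04. L2 and L3 were the next lower ones, with log2 fold changes of -0.24 and -0.43 and unadjusted p-values of 6.50e-04 and 7.85e-04. L2 was the best counted of the 6, with at least 774 counts in each library, and its log2 fold change was the smallest, from 4.97 ± 0.39 TPM with DMSO to 4.16 ± 0.23 TPM with BaP (SD, n = 5). The highest mean log2 activity among the 6, over both treatments, was the 0.30 of L1 with DMSO.

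With the block, H1 stayed among the 3 higher tags of smallest p, joined by H4 and H5. H4 read 2.14, 2.12, 1.67, 1.73 and 1.90 TPM in DMSO libraries 1 to 5 and 3.18, 2.71, 2.13, 2.08 and 2.11 TPM with BaP. Within each number BaP was higher, while BaP libraries 4 and 5 lay at the level of DMSO libraries 1 and 2 in TPM. In log2 activity the groups did not overlap. Its log2 fold change was 0.36 ± 0.08 (SE) with an unadjusted p of 2.39e-04. L4, the lower tag of smallest p, read 4.87, 5.32, 6.61, 5.10 and 4.44 TPM in DMSO and 4.56, 4.29, 4.49, 4.39 and 3.71 TPM with BaP. DMSO library 3 held the highest of these 10 values. Without that library, and with no block, the log2 fold change of L4 was -0.20, against -0.28 with it. H5 stood at 2.97 ± 0.27 TPM with DMSO and 3.60 ± 0.38 TPM with BaP (SD, n = 5), and L5 at 4.91 ± 0.83 and 4.05 ± 0.52 TPM. The log2 fold change of L4 was -0.27 ± 0.06 (SE) with an unadjusted p of 2.09e-04, and all adjusted p-values of the edgeR fit with the block were 0.963 or more.

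The H520 libraries had no part in choosing these tags, and their exposure was longer, so the values stand side by side only. BaP over DMSO in H520 gave H1 a log2 fold change of -0.03 ± 0.09 (SE), H4 0.09 ± 0.07, L1 0.21 ± 0.11 and L4 -0.09 ± 0.07. Of the 27 tags named by the rule, M2 alone had an unadjusted p under 0.05 in H520, where its log2 fold change was -0.15 ± 0.05 (SE) and its p 0.0059. Across H520, edgeR called 0 of 223732 tags (0.00%), and 10534 (4.71%) had an unadjusted p under 0.05.

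Active tags, those with a mean log2 activity of at least 1 over the 10 libraries (an RNA share at least 2-fold above that of the typical tag for the same input), numbered 3223, or 1.44% of tags. None of them passed the test in either edgeR model. At an unadjusted p under 0.05 there were 11 (0.341%, against 2.60% of all tags) without the block, 1 higher and 10 lower, and 87 (2.70%, against 4.0%) with it, 13 higher and 74 lower. Their median log2 fold change was 0.06 without the block and 0.04 with it, against -0.0013 without the block over all tags. In the fit with no block that median was -0.0024 without BaP library 5, and 0.02 to 0.077 without any other single library. In the fit with the block it was -0.03 without transfection 3, which removes a DMSO and a BaP library. Without any other single number it was 0.031 to 0.074. In 0 of the 3223 did the 5 BaP libraries separate from the 5 DMSO libraries, against 0.244% (above) and 0.231% (below) of all tags.

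The active tags were measured less closely than the others. The 95% interval stayed within 1.5-fold for 53.5% of them and within 2-fold for 71.2%, and with the block for 57.5% and 80.6%. The median standard error was 0.12 for the 1858 tags with activities of 1 to 2, 0.17 for the 904 at 2 to 3, 0.47 for the 254 at 3 to 4 and 0.38 for the 207 at 4 and above. With the block these errors were 0.088, 0.12, 0.34 and 0.24. A response under 2-fold was therefore not detectable for many of the strongest reporters, and the absence of calls there does not show that they kept their level.

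The mean level of the active tags varied between libraries of the same treatment, and not all active tags followed it. Their mean log2 activity was 2.13, 1.76, 1.86, 2.18 and 2.23 in DMSO libraries 1 to 5 and 1.74, 1.88, 2.18, 2.26 and 2.29 in BaP libraries 1 to 5. DMSO libraries 2 and 3 and BaP libraries 1 and 2 were low, the other 6 were high, and both treatments had libraries of each kind. The means were 2.03 ± 0.21 with DMSO and 2.07 ± 0.25 with BaP (SD, n = 5), and a two-sided exact permutation test gave p = 0.659, adjusted to 0.810 over 6 library measures. The smallest p this design allows is 0.0079.

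By transfection number, BaP minus DMSO was -0.38, 0.12, 0.33, 0.08 and 0.06 for numbers 1 to 5. It was positive in 4 of 5, and an exact sign-flip test over the 5 differences gave p = 0.625, where 0.0625 is the smallest p it allows. The differences were wider among the strongest tags. Among tags at activities of 3 to 4 they were -0.83, 0.15, 0.72, 0.18 and 0.15, and among tags at 4 and above -0.72, 0.20, 0.65, 0.19 and 0.06. Numbers 1 and 3 thus differed most between treatments, in opposite directions, in the means of all 4 bands of active tags. Single sets of active tags went other ways. For 1523 active tags, log2 activity had an SD under 0.2 between the DMSO libraries. Their mean BaP minus DMSO was 0.07 in number 1 and -0.15 in number 3. For the 823 with an SD of at least 0.5 it was -1.09 and 1.05. These sets were formed on values of the same libraries.

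**Figure D2:**
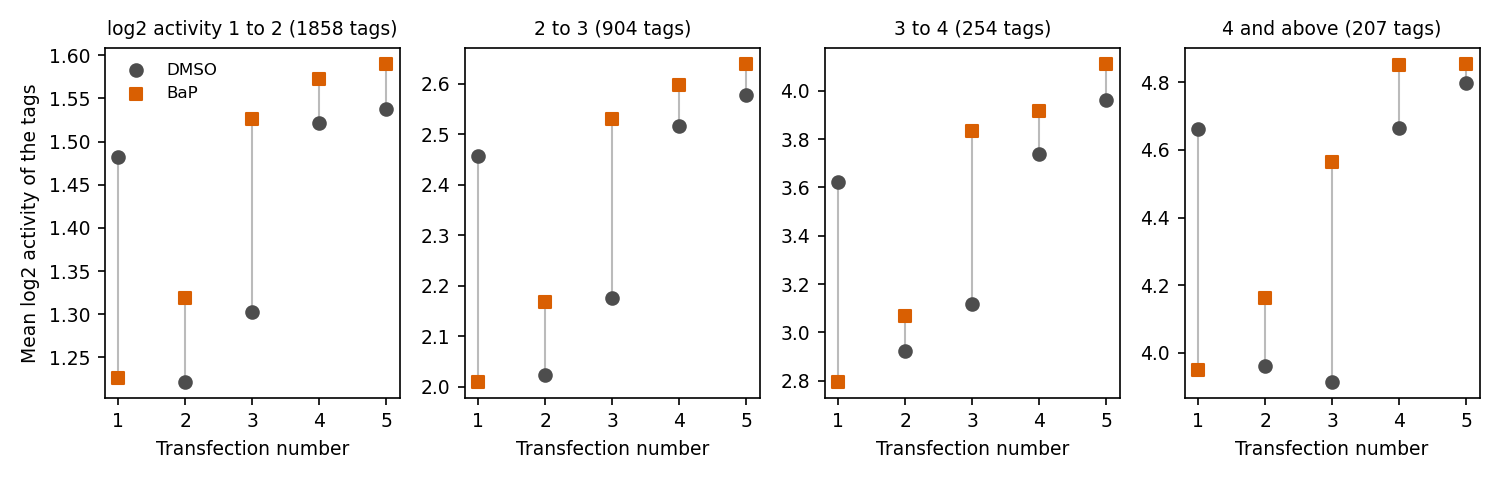
Mean log2 activity of the active tags in 4 bands of activity (vertical axes differ and do not start at 0) for DMSO (circles) and BaP (squares) libraries by transfection number, with lines joining libraries of the same number. BaP library 1 is low and BaP library 3 high beside the DMSO library of the same number, and the differences for numbers 2, 4 and 5 are small and positive.

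The same 2 numbers held nearly all large differences between single libraries. Of the 3223 active tags, 592 were more than 2-fold lower with BaP in transfection 1 and 515 more than 2-fold higher in transfection 3. Over all 223690 tags these counts were 603 and 578. Transfection 2 had 1 such tag, transfection 4 had 0 and transfection 5 had 1. Across the 3223 active tags, the log2 ratios of BaP over DMSO in transfections 1 and 3 correlated at Pearson r = -0.94, those in 3 and 4 at 0.86, and those in 4 and 5 at 0.77. The ratios in transfection 2 correlated with the others at -0.17 to 0.12, and across inactive tags with at least 1000 input counts the 10 such correlations lay between -0.087 and 0.091. These correlations are across tags, which are not independent replicates and share their library.

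The spread between libraries was wider among active tags that were weak in H520. For the 1703 active tags with a mean log2 activity under 1 in the H520 DMSO libraries, the A549 level was 1.81 ± 0.30 with DMSO and 1.87 ± 0.38 with BaP (SD, n = 5). For the 1511 that were also active in H520, it was 2.28 ± 0.11 and 2.29 ± 0.10. The median standard error of the log2 fold change was 0.30 in the first set and 0.098 in the second.

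The number of active tags near the threshold depended on which transfections entered the fit. Without transfection 1, edgeR with the block called 0 tags (0.00%), with a smallest adjusted p of 0.163. At an unadjusted p under 0.05 were 12733 tags (5.71%), among them 1474 of the 3223 active tags (45.7%), 1332 of these higher with BaP. All 10 ways to leave out a pair of numbers were then fitted, a step added after the values had been seen. In 9 of them edgeR called 0 tags. Without transfections 1 and 3 it called 680 (0.31%), 674 higher and 6 lower, and 580 of them were active tags, all higher. At an unadjusted p under 0.05 were 5.76% of the tags of that fit. Those 580 included 497 tags of activity under 1 in H520. The direction among active tags also depended on the numbers left out. Their median log2 fold change was -0.083 without transfections 2 and 3, -0.058 without 3 and 4, and -0.049 without 3 and 5. Without any other pair of numbers it was 0.008 to 0.115. Numbers 1 and 3 are the ones whose pairs differed most, and only 3 pairs remained without them. Many active tags moved together within a library. The 680 calls are therefore not separate observations and are not given as support for a response to BaP.

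Among single active tags the differences were small. M1, with the smallest p of the active tags in both models, read 11.7, 11.7, 11, 10.8 and 9.47 TPM in DMSO libraries 1 to 5 and 11, 10.9, 8.74, 9.19 and 8.16 TPM in BaP libraries 1 to 5. BaP was lower in 5 of 5 pairs, and the groups overlapped. The log2 fold change was -0.18 ± 0.06 (SE) without the block, with an unadjusted edgeR p of 0.0081, and -0.18 ± 0.04 with it, with an unadjusted edgeR p of 4.71e-04.

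M2 read 5.68, 6.04, 6.13, 4.85 and 4.95 TPM with DMSO and 5.52, 5.18, 4.59, 4.60 and 4.18 TPM with BaP. It was lower in 5 of 5 pairs, with a log2 fold change of -0.18 ± 0.06 (SE) in A549, beside the -0.15 of H520. M3 fitted without the block had a log2 fold change of -0.20 and an unadjusted p of 0.042, and with the block an unadjusted p of 4.82e-04. N1 had the smallest p of the higher active tags without the block, with 2.70 ± 0.35 TPM in DMSO and 3.16 ± 0.62 TPM with BaP (SD, n = 5) and an unadjusted edgeR p of 0.039. N2 was higher in 5 of 5 pairs in log2 activity, at 9.05 ± 0.79 TPM with DMSO and 9.77 ± 1.14 TPM with BaP, and the groups overlapped.

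Single strong reporters ranged from steady to variable. S2, the tag of highest mean activity, read 570, 483, 450, 492 and 423 TPM in DMSO libraries 1 to 5 and 550, 586, 416, 469 and 366 TPM with BaP. Its log2 fold change was -0.01, with a 95% interval from -0.31 to 0.29, which excludes a 1.5-fold difference. The tags next in activity had log2 fold changes of 0.02 and -0.02. S1, the most abundant tag, read 1985, 1415, 1207, 2471 and 3091 TPM in DMSO and 1050, 1346, 2458, 3002 and 3470 TPM with BaP. It was low in the same 4 libraries as the mean of the active tags. Its interval, from -0.57 to 0.94, left room for a difference close to 2-fold.

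V1 varied most among tags with at least 500 input counts, with an SD of log2 TPM of 0.84 over the 10 libraries. It read 176, 76.9, 131, 229 and 257 TPM with DMSO and 61.9, 92.6, 269, 251 and 321 TPM with BaP, so the values with BaP ran both under and over all values with DMSO. V2 had nearly the same course, from 34.7 to 178 TPM with BaP and from 44.5 to 147 TPM with DMSO. Their log2 fold changes of 0.23 came with standard errors of 0.56.

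**Figure D3:**
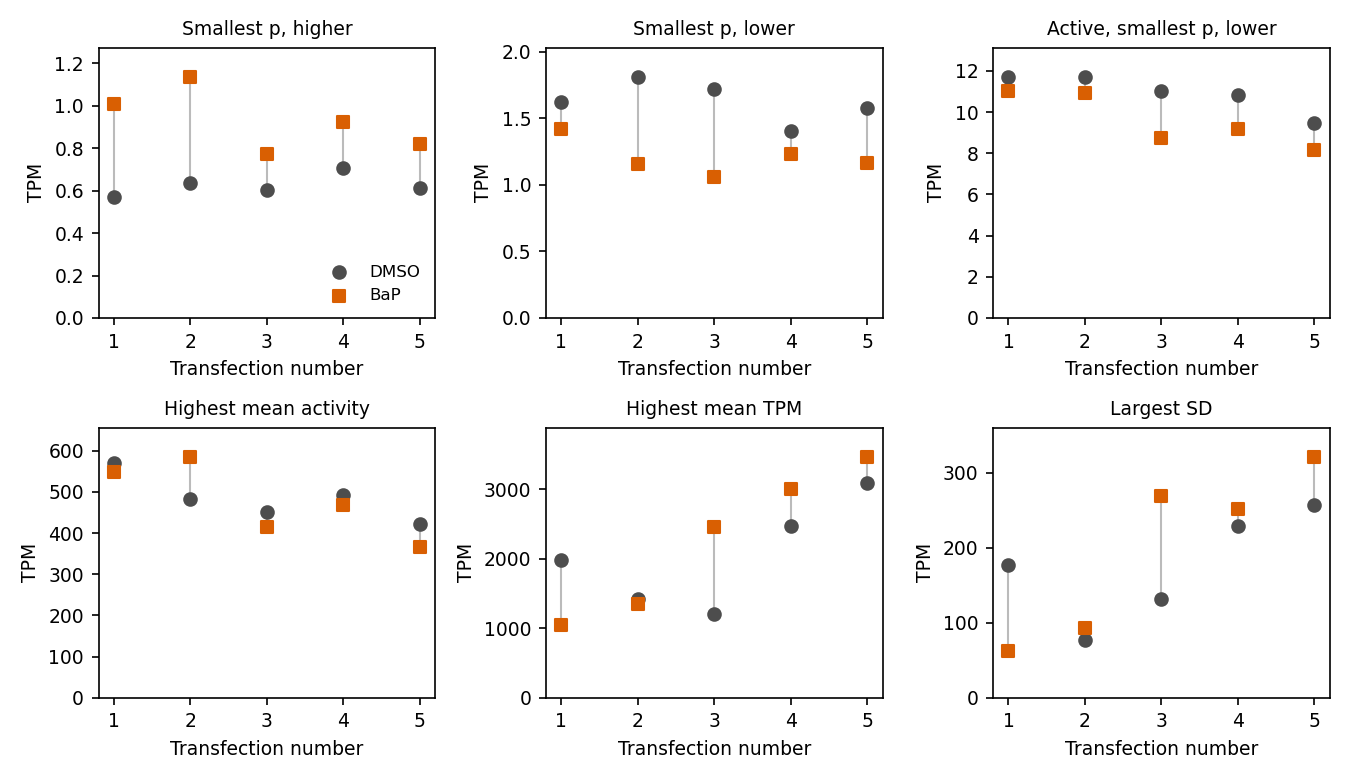
TPM by transfection number in DMSO (circles) and BaP (squares) for 6 tags, left to right and top to bottom H1, L1, M1, S2, S1 and V1, with lines joining libraries of the same number. H1 is higher with BaP in all 5 pairs, and V1 has its lowest value in BaP library 1 and its highest in BaP library 5.

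Tag composition moved with the library as well. Tags with 2 G or C bases among the 12 (2340 tags) had median log2 activities of -0.20, -0.21, 0.02, 0.02 and -0.22 in DMSO libraries 1 to 5 and -0.30, -0.16, -0.15, 0.00 and -0.20 in BaP libraries 1 to 5. DMSO libraries 3 and 4 and BaP library 4 were near 0, and BaP library 1 was lowest. The median log2 fold change of these tags was -0.06, and 24.6% of them were positive, against 49.3% of all tags. Without the block 35 of them (1.5%) had an unadjusted p under 0.05, against 2.60% of all tags, and 31 of these were lower with BaP. With the block 142 (6.08%) had one, against 4.0% of all tags, and 136 of these were lower. Tags with 8 G or C bases had a median of 0.01, and 477 of them (2.33%) had an unadjusted p under 0.05 without the block, 275 of these higher. With the block 845 (4.12%) had one, 594 of these higher. Whether composition played a part in single-tag differences was not tested, and with an offset for tag composition, added after the values had been seen, edgeR called 0 tags, while 7377 had an unadjusted p under 0.05, and 8702 had one with the block.

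**Figure D4:**
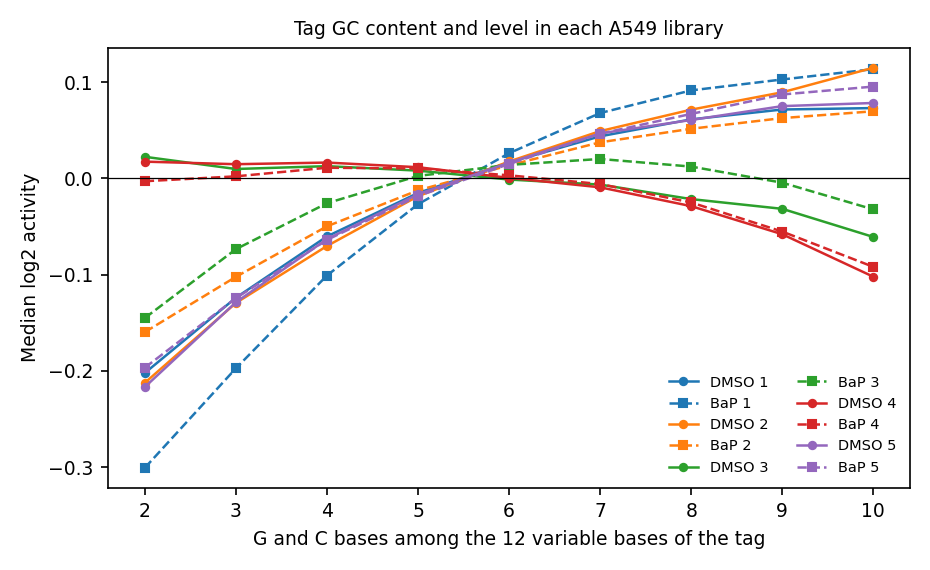
Median log2 activity of tags by the number of G and C bases among the 12 variable bases, 1 line for each A549 RNA library (solid, DMSO; dashed, BaP; 1 colour for each transfection number). DMSO libraries 3 and 4 and BaP library 4 run flat or downward, BaP library 3 lies between, and the other 6 rise with G and C content, most steeply BaP library 1.

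The core of the xenobiotic response element was looked for in the tags on either strand. GCGTG was in 0 of the 223690 tags within the 12 variable bases, and the triplet GTG and its reverse complement CAC were in none either. Across all 15 bases, where the constant end can complete it, 1268 tags (0.567%) held it. Their median log2 fold change was 0.0047, and 28 of the 1265 tested (2.21%) had an unadjusted p under 0.05, near the 2.60% of all tags.

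The AP-1 site TGANTCA was in 138 tags (0.0617%), with a median log2 fold change of -0.02 and 2 tags (1.45%) at an unadjusted p under 0.05 without the block, against 2.60% of all tags. The antioxidant response element TGACNNNGC was in 523 (0.234%), with a median of 0.01 and 6 such tags (1.15%). The polyadenylation signal AATAAA or its variant ATTAAA, sought on the tag strand alone, was in 582 (0.260%), with a median of -0.03 and 15 such tags (2.58%). A match within a tag is a description of the tag and not of the fragment it marks.

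None of the other library measures separated the treatments. Active tags took 15.3 ± 3.43% of counts with DMSO and 16.3 ± 4.14% with BaP (SD, n = 5; exact permutation p = 0.627), and the 10 most abundant tags 1.47 ± 0.578% and 1.65 ± 0.716% (exact permutation p = 0.667). Tags absent from the A549 input took 9.10, 9.90, 16.1, 22.1 and 10.8 counts per M in DMSO libraries 1 to 5 and 10.1, 13, 22, 23.2 and 8.78 in BaP libraries 1 to 5. Numbers 3 and 4 were high in both treatments, and they include the libraries whose level depended least on tag composition. For this measure the exact permutation p was 0.675, and adjusted over the 6 measures all p-values lay between 0.810 and 0.952.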

How the data were processed

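Per the labels' protocols, mRNA of the transfected cells was reverse transcribed and the region around the tag was amplified. The submitters' processing notes name bcl2fastq. The sources used here do not give the matching of reads to tags, and they describe no molecular identifiers. Per the file headers, the deposited files list a raw count and a TPM per tag. The deposited TPM equals count over library total scaled to counts per M (mega), as recomputed.

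Libraries were merged by tag, and a tag missing from one was set to 0. Log2 activity was log2((RNA TPM + 0.5)/(input TPM + 0.5)) minus the median of the library. Tests used edgeR 4.0.16 (TMM, filterByExpr, robust quasi-likelihood) in R 4.3.3 on the deposited counts, with Benjamini-Hochberg adjustment over all tags tested. The main model had treatment alone and a second one added the transfection number. Alternatives were DESeq2 1.42.0, limma-voom (limma 3.58.1), other normalizations and filters, and left-out libraries. Library measures were compared with exact permutation tests over 252 splits (Python 3.11.15, numpy 2.4.6), and their p-values were adjusted with scipy 1.17.1.

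Named tags were, in each model, the 3 higher and 3 lower of smallest p, over all tags and over active tags, plus the 3 of highest TPM, the 3 of highest activity and the 2 of largest SD (the last 5 with at least 500 input counts). This rule, the tag groups and the library measures were chosen with earlier results of these data known.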

Additional observations from a re-analysis of the deposited data

How the results depend on the processing

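The absence of calls held in 48 of 49 fits across tags. These covered RLE or no normalization factors, factors from inactive tags, other count filters, DESeq2, limma-voom, no robust shrinkage, an offset for composition, the library level of active tags as a covariate, and left-out libraries. The exception was edgeR with the replicate block without transfections 1 and 3, which called 680 tags. It was chosen as 1 of 10 pairs of numbers after seeing the data, and the cause was not tested. Without 1 library, and no block, there were 0 calls in each of 10 fits, with 4311 to 8036 tags at an unadjusted p under 0.05. With the block, leaving out 1 number gave 7125 to 12733.

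The replicate block moved the number of calls from 0 to 0 and the tags at an unadjusted p under 0.05 from 5805 to 8918. Same-numbered libraries were not alike for every number. Their deviations from the group means correlated across all tags at -0.014 to 0.481, with 3 of 5 over 0.1. Across all tags, 5 of 10 libraries correlated best with their own number. Across inactive tags with at least 1000 input counts, these correlations were 0.087 to 0.43, and 6 of 10 libraries correlated best with their own number. Across active tags they were 0.94, 0.91 and 0.98 for numbers 2, 4 and 5, and -0.44 and -0.65 for numbers 1 and 3.

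Without 1 library the difference in the mean log2 activity of active tags ran from -0.03 to 0.12, in the percent of counts on active tags from -0.151 to 2.28, on the 10 most abundant tags from -0.0541 to 0.379, in tags listed from -342 to 313, in GC percent from 0.0044 to 0.229 and in counts per M absent from the input from -0.121 to 3.95. The smallest adjusted p of these was 0.683 by exact permutation. All 459 values of the 27 named tags stayed without a call, as in the main fits, which says nothing about their direction. The sign of the log2 fold change differed from the main fit in 2 of 17 settings for S1, V1 and V2. For S2 it did so in 4. For the H, L, M and N tags, which were chosen by small p, it did so in 0. S1 ran from -0.05 to 0.41 and V1 from -0.10 to 0.46. Without the block, the median standard error was 0.32 for tags with under 100 input counts and 0.16 for active tags, against 0.081 over all tags. The sources of these errors were not tested.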
